A study of Mus musculus with 2 samples.

Results

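The cells described here were natural killer (NK) or innate lymphoid barcodes in which the granzymes Gzmc to Gzmg outnumbered Gzma and the Ly49 receptors, taken from CD45+ cells of MC38 tumors. They were chosen from the raw unique molecular identifiers (UMIs, 1 for each captured mRNA molecule) of every barcode in both libraries. A barcode was kept with at least 1000 UMIs and at most 25% of them from mitochondrial genes. It entered the NK gate with at least 2 UMIs of Ncr1 and Klrb1c (NKp46 and NK1.1, receptors of NK cells and group 1 innate lymphoid cells), at most 1 UMI of the T cell genes Cd3d, Cd3g, Cd8a, Cd8b1 and Cd4, and at most 5 UMIs of the macrophage genes C1qa, C1qb and C1qc. Within the gate, a Gzmc to Gzmg cell had at least 2 UMIs of Gzmc, Gzmd, Gzme, Gzmf and Gzmg together, and at least as many as of Gzma, Klra4, Klra8 and Klra9 together. This gave 273 cells of 8090 kept barcodes, 145 of 4679 in Control and 128 of 3411 in IR. Gate cells with at least 2 UMIs of Gzma and the 3 Ly49 genes, outnumbering Gzmc to Gzmg, are called conventional NK cells below, and there were 101 in Control and 195 in IR.

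Both libraries came from wild-type (labelled WT) mice bearing MC38 tumors, a mouse colon adenocarcinoma line grown under the skin. The Control library held cells of tumors that were not irradiated, and the IR library held cells of tumors that had received 1 local dose of 20 Gy 4 days earlier. Each library was made from several tumors pooled together, which gave each group a single library without replicates. The labels name the cell type as CD45+CD11b+Ly6Chi, while the labels' own protocol and the study's methods describe a sort of live CD45+ cells; the Gzmc to Gzmg cells had little Itgam, the gene of CD11b, at 8.12 CPM in Control and 27.8 in IR (CPM, the UMIs of a gene per 1000000 UMIs summed over the cells).

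Granzymes are serine proteases that NK cells and cytotoxic T cells store in granules and release into target cells through pores made by perforin. Gzma and Gzmb are the best known; Gzmc, Gzmd, Gzme, Gzmf and Gzmg belong to a rodent cluster beside Gzmb, and are known from strongly activated lymphocytes and from NK or ILC1-like cells of tumors and of the uterus. Conventional NK cells circulate and carry Ly49 receptors for MHC class I, while type 1 innate lymphoid cells (ILC1) stay in tissues and are recognised by the integrin CD49a, the product of Itga1.

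The 5 granzymes lie on the minus strand of chromosome 14, in GRCm38 and the GENCODE vM21 annotation in the order Gzme at chr14:56117626-56120625, Gzmd at chr14:56129556-56132608, Gzmg at chr14:56156582-56159579, Gzmf at chr14:56205263-56211417 and Gzmc at chr14:56231441-56234656, followed by Gzmb at chr14:56258838-56262260. Gzmn, a related granzyme, lies between Gzmg and Gzmf at chr14:56165797-56174599. The cells were rich in their neighbours but had almost no Gzmn, with 1.87 CPM in Control and 3.22 in IR. The 250 bases before the start of Gzmc, the most abundant of the 5, of Gzmf, with the largest IR to Control ratio among them, of Gzmd, and of the nearly silent Gzmn are printed here from RefSeq's GRCm38.p6 table, 5′ to 3′ on the gene's strand (RefSeq's start can differ by some bases from GENCODE's), with the letters TGTGGT (a Runx motif, on either strand) in capitals.
Gzmc promoter, chr14:56234658-56234907, minus strand: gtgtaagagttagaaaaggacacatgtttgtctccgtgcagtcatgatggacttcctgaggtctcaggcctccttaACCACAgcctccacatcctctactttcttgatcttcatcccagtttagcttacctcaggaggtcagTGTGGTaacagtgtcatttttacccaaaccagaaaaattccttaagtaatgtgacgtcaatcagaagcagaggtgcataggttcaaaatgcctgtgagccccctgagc
Gzmf promoter, chr14:56211408-56211657, minus strand: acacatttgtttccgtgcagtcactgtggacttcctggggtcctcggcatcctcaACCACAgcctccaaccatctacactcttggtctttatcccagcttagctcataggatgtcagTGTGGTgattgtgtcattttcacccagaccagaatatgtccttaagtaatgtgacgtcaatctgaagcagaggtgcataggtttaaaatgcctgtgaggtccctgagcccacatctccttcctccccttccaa
Gzmd promoter, chr14:56132594-56132843, minus strand: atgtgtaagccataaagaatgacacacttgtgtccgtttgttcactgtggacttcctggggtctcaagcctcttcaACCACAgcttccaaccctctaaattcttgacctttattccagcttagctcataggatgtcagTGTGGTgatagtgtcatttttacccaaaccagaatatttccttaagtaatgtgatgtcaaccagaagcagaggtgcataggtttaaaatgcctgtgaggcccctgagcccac
Gzmn promoter, chr14:56174600-56174849, minus strand: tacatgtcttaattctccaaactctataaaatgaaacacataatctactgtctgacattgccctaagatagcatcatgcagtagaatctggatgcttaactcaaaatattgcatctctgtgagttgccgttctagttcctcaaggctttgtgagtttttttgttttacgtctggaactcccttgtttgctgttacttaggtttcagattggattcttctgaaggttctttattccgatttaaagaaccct

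Each of the 5 granzymes had 2 matches to TGTGGT in this window, the first as its reverse complement and the second as written, spaced 62 bases apart in Gzmd, Gzme, Gzmf and Gzmg and 66 bases in Gzmc. Gzmn had 0, Gzmb also had 2, both as written and 59 bases apart, and Gzma had 1. The Gzmb window, chr14:56262335-56262584, lay further from the GENCODE start of its gene than the windows of the 5 granzymes did. Among 32851 RefSeq windows of 250 bases, 14.05% held at least 1 match and 1.27% held 2 or more. The 5 windows were 70.2% to 94.8% identical to each other in global alignments, and 43.01% to 48.9% identical to those of Gzmn, Gzmb and Gzma, so their shared letters are not separate observations. The T-box letters TCACACC (3.33% of windows), the AP-1 letters TGANTCA (6.75%) and the interferon-stimulated response element (2.98%), searched on both strands, were in none of these 5 windows.

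The cells made up 3.10% of kept barcodes in Control (exact binomial 95% interval 2.62% to 3.64%) and 3.75% in IR (3.14% to 4.45%), a ratio of 1.21 whose interval of 0.96 to 1.53 included 1. Conventional NK cells were 2.16% (1.76% to 2.62%) of kept barcodes in Control and 5.72% (4.96% to 6.55%) in IR, a ratio of 2.65 (2.09 to 3.35). The Gzmc to Gzmg cells were 57.3% (50.96% to 63.5%) of the NK gate in Control and 39.6% (34.3% to 45.2%) in IR, a ratio of 0.69 (0.58 to 0.82). These intervals, and those given for CPM below, cover counting error only. The intervals of CPM and of log2 ratios treat each UMI as separate, so they leave out the spread between cells. With 1 library per group the difference between tumors and libraries could not be measured, and no test between the groups was possible. Shares of a sorted sample also move with the numbers of every other cell type: macrophages, for example, numbered 1432 in Control and 375 in IR.

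Few of the cells held little of the 5 granzymes. Gzmc to Gzmg UMIs per cell had a median of 180 (range 2 to 3139) in Control and 452 (2 to 8293) in IR, and 4 and 2 cells held only 2 to 4 of them. In the median cell they were 1.72% of all UMIs in Control and 3.04% in IR, and up to 25.6% and 16.7%. Cells without any UMI of Gzma, Klra4, Klra8 or Klra9 were 82 of 145 in Control (56.6%) and 41 of 128 in IR (32.03%), or 63.1% and 42.5% once every cell was thinned to 2000 UMIs. Barcodes that met every condition but the comparison with Gzma and Ly49 numbered 27 in Control and 84 in IR, and those turned away by T cell genes alone 40 and 34. Without that comparison the ratio of the NK-gate shares was 0.97 in place of 0.69, so the lower share in IR rests on it.

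**Figure D1:**
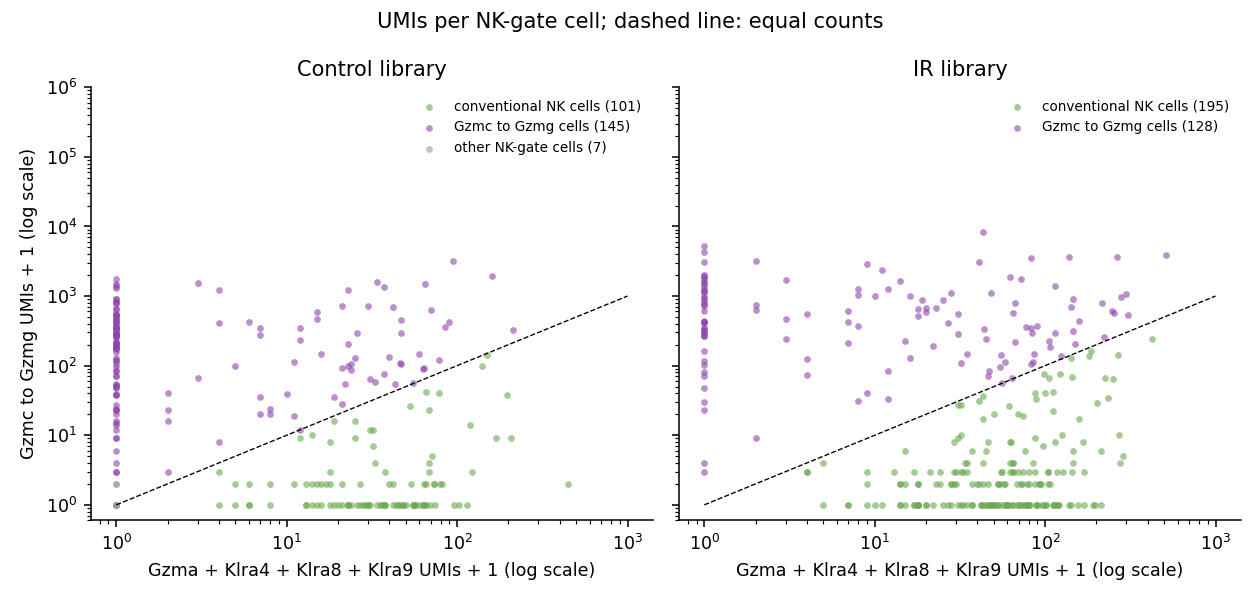
UMIs of Gzma, Klra4, Klra8 and Klra9 (x axis) against UMIs of Gzmc to Gzmg (y axis) in each NK-gate cell, both plus 1 on log scales, for the Control library (left) and the IR library (right). Points are cells colored by class; most Gzmc to Gzmg cells sit far above the dashed line of equal counts, with 82 Control and 41 IR cells at no Gzma or Ly49 UMI, and the IR panel has more conventional NK cells (195 against 101).

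The cells were deep. Their median was 9962 UMIs in Control and 15768 in IR, a ratio of 1.58, against 1.31 for conventional NK cells, 1.35 for CD8 T cells and 1.13 for all kept barcodes; at 2000 UMIs the median cell had 915 and 873 genes. Summed over cells, the values below rest on 1601120 UMIs in Control and 2481157 in IR. No barcode of the class occurred in both libraries, and 6 of all kept barcodes did. Where a gene is followed as a share of cells, every cell was thinned to 2000 UMIs, which left 141 Control and 127 IR cells.

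Of the markers named for this class, the granzymes and Ncr1 were rule genes, so their presence was fixed by the choice of cells. Xcl1, a chemokine of NK cells that attracts cross-presenting dendritic cells, was not used by the rule and stood at 1455 CPM in Control and 790.0 in IR. The ILC1 side of the label had mixed support. Itga1 was at 173 CPM in Control and 85.8 in IR, above the 72.6 and 27.2 CPM of conventional NK cells. Of other genes that define ILC1, Il7r was at 5.62 CPM in Control and 6.05 in IR, Cd200r1 at 2.50 CPM in Control and 2.82 in IR and Zfp683 (Hobit) at 1.25 CPM in Control and 0.403 in IR, and Cxcr6 at 33.1 CPM in Control and 16.1 in IR. Eomes, a transcription factor of conventional NK cells, was detected at 68.7 CPM (95% interval 56.5 to 82.8) in Control and 107 CPM (95% interval 94.3 to 120.5) in IR, and in conventional NK cells at 297 CPM in Control and 234 in IR. Itga2, the gene of the NK integrin CD49b, was at 3.75 CPM in Control and 3.63 in IR and in conventional NK cells at 44.9 CPM in Control and 26.6 in IR. The cells thus carried neither the full ILC1 nor the full conventional NK marker set, and are called Gzmc to Gzmg cells here.

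Gzmc was the leading granzyme in both libraries, and the other 4 were relatively higher in IR. Gzmc stood at 21106 CPM (95% interval 20882 to 21333) in Control and 23767 CPM (95% interval 23575 to 23959) in IR, a log2 ratio of 0.17 (0.15 to 0.19); without the comparison with Gzma and Ly49 in the rule its ratio on CPM + 10 was -0.08. Gzmd stood at 4018 CPM in Control and 7010.4 in IR and a ratio of 0.80 (0.76 to 0.84), and Gzme at 1471 CPM in Control and 2957 in IR and 1.01 (0.94 to 1.08). Gzmf showed the widest gap, with 3309 CPM (95% interval 3220.4 to 3399) in Control and 9438 CPM (95% interval 9317 to 9559) in IR, a log2 ratio of 1.51 (1.47 to 1.56). Gzmg stood at 983 CPM in Control and 2351 in IR, 1.26 (1.18 to 1.34). The ratios moved far more than these intervals over 18 alternatives in the rule and the processing. On CPM + 10 they ranged from 0.54 to 2.37 for Gzmd and 0.73 to 2.45 for Gzme. For Gzmf the range was 1.24 to 3.61, and for Gzmg 0.98 to 4.23. Because the rule counted these UMIs, their levels describe the chosen cells and were not tested.

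The mix within the 5 shifted accordingly. Of all Gzmc to Gzmg UMIs, Gzmc took 68.3% in Control and 52.2% in IR, Gzmf 10.7% and 20.7%, Gzmd 13.01% and 15.4%, Gzme 4.76% and 6.50%, and Gzmg 3.18% and 5.16%. At 2000 UMIs per cell, Gzmf was detected in 20.6% of the Control cells and 39.4% of the IR cells, Gzmg in 18.4% of the Control cells and 29.9% of the IR cells, Gzmd in 50.4% of the Control cells and 63.8% of the IR cells and Gzmc in 98.6% of the Control cells and 99.2% of the IR cells. All 5 granzymes were found together in 8.51% of Control cells (12 of 141) and 20.5% of IR cells (26 of 127), and only 1 of the 5 in 39.7% and 30.7%. CD8 T cells had another mix, with Gzmf at 59.0% of the 5 in Control and 56.3% in IR, and Gzmc at 27.7% and 21.2%. In exact 90-base windows over the last 500 bases of each transcript, 1.70% of the windows of Gzmd and Gzme occurred in each other's transcripts, and 0% of those of Gzmc, Gzmf and Gzmg in another granzyme's, so counts could be confused for Gzmd and Gzme in a short stretch.

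**Figure D2:**
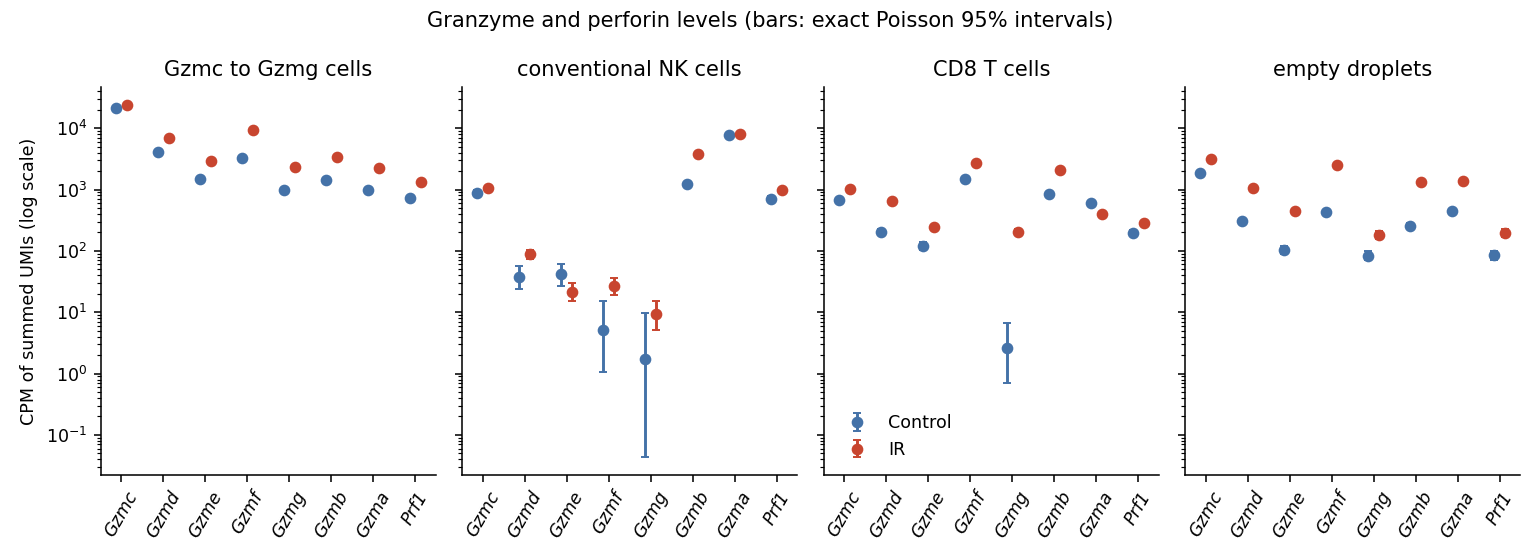
Level (CPM of summed UMIs, log scale) of 7 granzymes and perforin in Gzmc to Gzmg cells, conventional NK cells, CD8 T cells and empty droplets, with Control in blue and IR in red and exact Poisson 95% intervals as bars. Gzmc is highest in Gzmc to Gzmg cells in both libraries, Gzma in conventional NK cells, and Gzmf exceeds Gzmc in CD8 T cells.

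The same granzymes were found in the droplet background. In barcodes ranked 45001 to 90000 by UMIs, which hold 3 to 67 UMIs each in Control and 3 to 40 in IR and are read here as empty droplets, Gzmc to Gzmg made up 0.274% of UMIs in Control and 0.725% in IR. Macrophages, which should lack them, carried at least 2 such UMIs in 3.77% of Control and 8.53% of IR cells at median depths of 9556 and 11342 UMIs, and in 0.282% and 0.811% at 2000 UMIs. These macrophages were chosen without any UMI of Ncr1, Klrb1c, Cd3d or Cd3g, so the shares leave out macrophage barcodes that held such UMIs. The Gzmc to Gzmg cells held 55.6% of all Gzmc to Gzmg UMIs of kept barcodes in Control and 69.8% in IR.

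Other granule genes were described against all genes. Of 15 in this list, 11 reached a mean of 50 CPM in the 2 libraries, and without the rule gene Gzma 8 of 10 were higher in IR and 2, Gzmb and Serpinb9b, were at least 2-fold higher on log2(CPM + 10), with a median log2 ratio of 0.23 (with Gzma, 9 of 11, 3 and 0.29). Over all 2406 genes with that mean, the median was -0.05, and 28 (1.16%) were at least 2-fold higher and 13 (0.54%) at least 2-fold lower. The 28 include Gzma, Gzme, Gzmf and Gzmg, whose levels the rule itself used. In conventional NK cells 42 (1.55%) of 2717 were higher and 13 (0.478%) lower by that measure. Scaling by TMM added 0.10 to each log2 ratio in the Gzmc to Gzmg cells, so a value between -0.10 and 0 changes sign with it. Gzmb, which activates caspases in target cells, was at 1435 CPM (95% interval 1377 to 1495) in Control and 3449.6 CPM (95% interval 3377 to 3523) in IR, a log2 ratio of 1.26 that stood beside 1.64 in conventional NK cells. Gzma, a rule gene that limits membership, was at 997 CPM in Control and 2219 in IR. Prf1, the pore-forming perforin, was at 730.1 CPM in Control and 1329 in IR (0.86). Serpinb9b, a gene of the serpin protease inhibitor family, had a ratio of 1.31, but 1 cell held 33.5% of its IR UMIs. The granule proteoglycan Srgn at 1591 CPM in Control and 1944 in IR and Nkg7 at 1791 CPM in Control and 2024 in IR were past no 2-fold limit, and Ctsw (cathepsin W) was at 1011 CPM in Control and 634 in IR (-0.67).

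Serpine2, an extracellular serpin that inhibits serine proteases such as thrombin, showed the largest IR to Control ratio. It was at 16.9 CPM (95% interval 11.1 to 24.5) in Control and 156 CPM (95% interval 141 to 173) in IR, a log2 ratio of 2.63 on the CPM + 10 scale, and was detected in 3.55% of the Control cells and 25.2% of the IR cells at 2000 UMIs. In conventional NK cells it was at 12.1 CPM in Control and 32.2 in IR, in CD8 T cells at 12.2 CPM in Control and 72.6 in IR and in empty droplets at 6.69 CPM in Control and 28.98 in IR. Spp1, the secreted matrix protein osteopontin, was at 1270.4 CPM (95% interval 1216 to 1327) in Control and 3768 CPM (95% interval 3692 to 3845) in IR (1.56) and in 48.2% of the Control cells and 70.9% of the IR cells; it was also abundant in macrophages, at 2138 CPM in Control and 5362 in IR, and in empty droplets, at 1487 CPM in Control and 2199.7 in IR, so the cells were below the droplet level in Control and above it in IR. Mt1, a metal-binding metallothionein, was at 229 CPM in Control and 615 in IR (1.39), while conventional NK cells were at 133 CPM in Control and 122 in IR. Ly6a (Sca-1), an interferon-inducible surface protein, was at 176 CPM in Control and 503 in IR (1.46), in conventional NK cells at 183 CPM in Control and 519 in IR and in empty droplets at 713 CPM in Control and 1306 in IR. Basp1, a membrane-associated signalling protein, was at 39.3 CPM in Control and 151 in IR (1.70) and at 261 CPM in Control and 339.6 in IR in empty droplets.

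Several of the 12 largest ratios belonged to genes of myeloid cells or rested on few cells. Cxcl2, a neutrophil-attracting chemokine, was at 51.2 CPM in Control and 324 in IR (2.45), and at 1966 CPM in Control and 3613 in IR in empty droplets; its ratio was -0.59 once the 6% of barcodes with the highest Scrublet doublet scores were removed (4 Control and 13 IR cells of the class). Il1b, the inflammatory cytokine interleukin 1 beta, was at 98.1 CPM in Control and 341 in IR (1.70, -0.43 without those barcodes), against 939 CPM in Control and 1780.4 in IR in empty droplets. For the interferon-induced chemokine Cxcl10 (1.53, 0.04 without those barcodes), 1 cell held 64.9% of the IR UMIs. In the case of Ccl5, a T cell and NK cell chemokine, 1 cell held 34.1%, and it was detected in 8.51% of the Control cells and 13.4% of the IR cells. The 6% removed by Scrublet score was a fixed share of each library. Scrublet's automatic threshold called 0 kept barcodes in Control and 1 in IR, so most removed barcodes were not called doublets. Ifi27l2a was at 49.97 CPM in Control and 191 in IR (1.75) and at 923 CPM in Control and 2086 in IR in empty droplets. If all UMIs of C1qa, C1qb, C1qc, Apoe and Lyz2 in the cells came from free RNA, free RNA made up 2.51% of their UMIs in Control and 3.47% in IR, where the rule itself limits C1q. After subtraction of that share, 27 genes were at least 2-fold higher and 13 lower, and the log2 ratio was 1.49 for Ly6a, 1.82 for Basp1, 1.83 for Ifi27l2a, 1.84 for Isg15, 1.79 for Il1b and 4.18 for Cxcl2. The subtraction took away nearly all Cxcl2 in Control, so its 4.18 rests on a Control value near the floor. Over 18 alternatives in the rule and the processing, Serpine2, Spp1, Isg15, Ifi27l2a, Basp1, Ly6a and Mt1 stayed at least 2-fold higher, while Ccl5 ranged from 0.45 to 1.83 and Serpinb9b from 0.58 to 2.28.

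**Figure D3:**
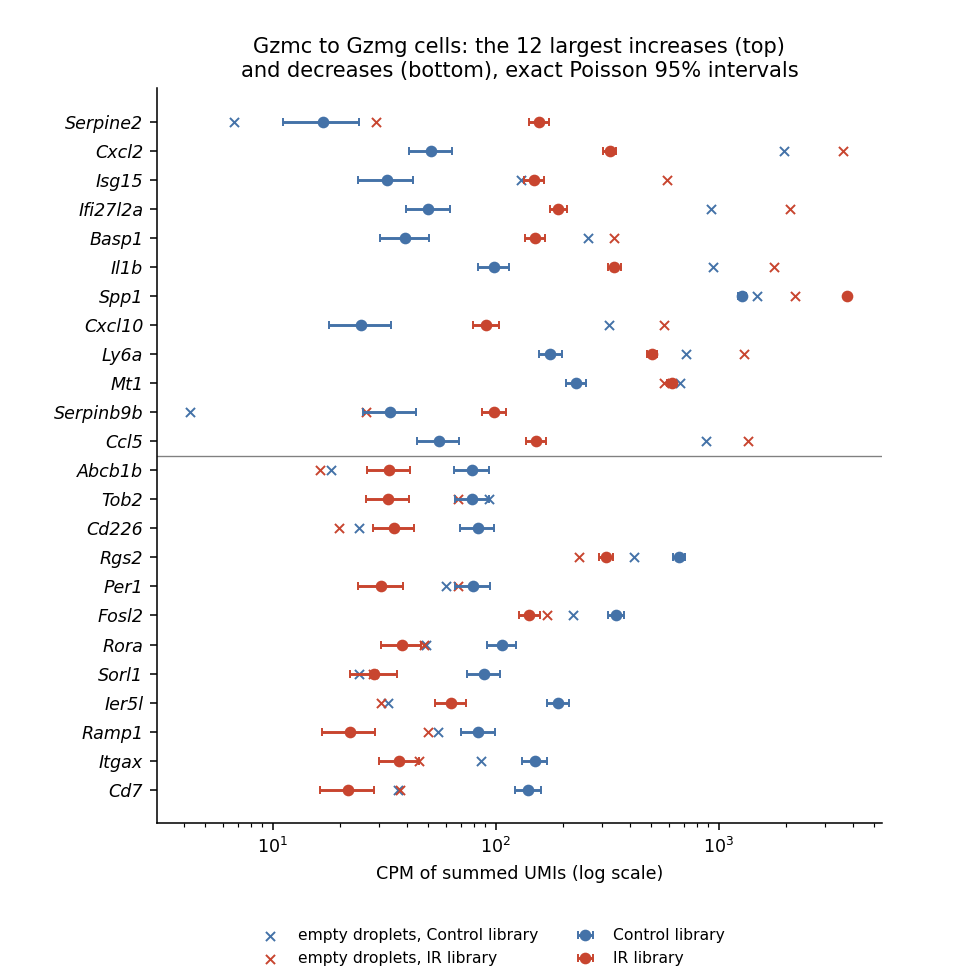
CPM of summed UMIs (log scale) in Gzmc to Gzmg cells for the 12 genes with the largest increase (upper) and decrease (lower) in IR; circles show the cells with exact Poisson 95% intervals, crosses the empty droplets, Control in blue and IR in red. Of the 12 upper genes, Serpine2 and Serpinb9b lie above their empty-droplet level in each library and Spp1 and Mt1 in IR, while Cxcl2, Isg15, Ifi27l2a, Basp1, Il1b, Cxcl10, Ly6a and Ccl5 lie below it in both.

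The 12 genes with the largest decrease in IR had varied roles. Cd7, a co-receptor of T and NK cells, was at 139.9 CPM (95% interval 122 to 159) in Control and 21.8 CPM (95% interval 16.3 to 28.4) in IR, a log2 ratio of -2.24, and was found in 18.4% of the Control cells and 5.51% of the IR cells; in conventional NK cells it was at 225 CPM in Control and 75.4 in IR (-1.46). Itgax, the gene of the integrin CD11c, was at 149.9 CPM (95% interval 132 to 170.1) in Control and 37.1 CPM (95% interval 29.9 to 45.5) in IR (-1.76), and in conventional NK cells at 161 CPM in Control and 63.1 in IR (-1.22). Ramp1, part of the receptor for the neuropeptide CGRP, was at 83.7 CPM in Control and 22.2 in IR (-1.54). Rora, a nuclear receptor of innate lymphoid cells, was at 107 CPM in Control and 37.9 in IR (-1.29) and in 21.99% of the Control cells and 8.66% of the IR cells. Cd226 (DNAM-1), an activating receptor, was at 83.1 CPM in Control and 35.1 in IR (-1.05), and Rgs2, a brake on G protein signalling, at 666 CPM in Control and 312 in IR (-1.07). The AP-1 subunit Fosl2 was at 346 CPM in Control and 142 in IR (-1.23).

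Beside these, Ier5l had a log2 ratio of -1.46, the sorting receptor gene Sorl1 -1.35, the clock gene Per1 -1.14, the antiproliferative gene Tob2 -1.04 and the drug efflux pump gene Abcb1b -1.02. Over the 18 alternatives, Cd7, Itgax, Ier5l and Fosl2 stayed at least 2-fold lower. The other 8 fell short of 2-fold under at least 1 alternative, with ranges of -1.34 to -0.41 for Per1, -1.66 to -0.57 for Tob2, -1.20 to -0.32 for Abcb1b, -1.37 to -0.65 for Cd226, -1.47 to -0.84 for Rora, -1.60 to -0.82 for Sorl1, -2.09 to -0.89 for Ramp1 and -1.14 to -0.87 for Rgs2. For Cd7, 1 cell held 31.5% of the IR UMIs, and for the other 11 named genes with lower values this share was at most 14.5%. All 12 were lower in IR in conventional NK cells too, with log2 ratios from -1.46 to -0.17. Those cells come from the same 2 libraries, so this is no replicate of the comparison. Among genes tested in each population, no gene was at least 2-fold higher in one and at least 2-fold lower in the other.

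Genes induced by type I interferon were higher in IR. Of 37 in the list, 7 reached a mean of 50 CPM, all 7 were higher and 4 were at least 2-fold higher, with a median log2 ratio of 1.09; the same 7 genes had a median of 1.11 in conventional NK cells. The ubiquitin-like modifier Isg15 was at 32.5 CPM (95% interval 24.3 to 42.6) in Control and 149 CPM (95% interval 134 to 165) in IR (1.91). Bst2 (tetherin) was at 86.8 CPM in Control and 208 in IR (1.17) and Trim30a at 32.5 CPM in Control and 80.6 in IR (1.09). Of the 4 genes past 2-fold, Isg15, Trim30a and Ifi27l2a were below 50 CPM in Control and reached the mean through IR. The filter thus partly fixed the counts of higher genes and the median. The sum of all 37 genes, which has no such filter, had a log2 ratio of 1.28 (counting interval 1.18 to 1.38). Isg15 was also at 131 CPM in Control and 588 in IR in empty droplets, above its level in the cells. The same held for the summed list, at 657 CPM in Control and 1592 in IR in the cells. In empty droplets that sum was 2558 CPM in Control and 5849 in IR. The 16 list genes with a mean of 50 CPM in the droplets had a median log2 ratio of 1.12. Of 16 MHC class I genes, 14 were tested and 0 were past 2-fold, with a median of -0.08 and B2m at 3245 CPM in Control and 3183 in IR. All 15 interferon-gamma GTPase genes were below the mean of 50 CPM, and together they stood at 194 CPM in Control and 231 CPM in IR.

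Tested receptors and regulators shared by NK cells and ILC1 were lower in IR, most of them by less than 2-fold. The 16 genes tested of 20 in the list, which include the rule genes Ncr1 and Klrb1c, had a median log2 ratio of -0.30, 16 of 16 were lower and 1, Cd7, was past 2-fold; the same genes had a median of -0.32 in conventional NK cells. Without the rule genes 14 of 14 were lower, with a median of -0.23. Among all 2406 genes tested the median was -0.05 and the quartiles were -0.25 and 0.13, so a lower value in IR was common. Il2rb, the receptor chain for interleukins 2 and 15, was at 1422 CPM in Control and 1029 in IR (-0.46), the adaptor Hcst (DAP10) at 334 CPM in Control and 192 in IR (-0.77), and Tbx21 (T-bet), the transcription factor of group 1 cells, at 98.7 CPM in Control and 60.9 in IR (-0.62). The receptor Klrd1 (CD94) was at 1099 CPM in Control and 1058 in IR (-0.05).

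Genes of ILC1 and of tissue residency had a median of -0.47 over the 13 tested of 24, with 9 lower and 4 higher in IR, and Rora and Rgs2 past 2-fold; in conventional NK cells the same genes had a median of -0.17. Itga1 was at a log2 ratio of -0.93, Tmem176a at -0.96 and Tmem176b at -0.76, while Cd69 was at 0.23 and Ctla2a at 0.02. Genes of conventional NK cells (8 of 21 tested) had a median of 0.17, with Eomes at 0.57 and 0 past 2-fold. The 5 Ly49 genes tested of 10, among them the rule genes Klra4, Klra8 and Klra9, had a median of 0.20, and without the rule genes 2 remained, with a median of 0.36. Of 14 transcription factors tested of 30, 10 were lower and Rora alone was past 2-fold (median -0.29): Nr4a3, an early target of receptor signalling, was at 177 CPM in Control and 87.1 in IR (-0.95), Ets1 at 239 CPM in Control and 134 in IR (-0.79), and Id2, which innate lymphoid cells depend on, at 578 CPM in Control and 765 in IR (0.40). These counts of lower genes stand beside a median of -0.05 and quartiles of -0.25 and 0.13 over all genes tested.

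For checkpoint and costimulatory receptors the median was -0.19 over 11 of 17, with Cd226 past 2-fold. Pdcd1 (PD-1) was at 73.1 CPM (95% interval 60.4 to 87.6) in Control and 41.9 CPM (95% interval 34.2 to 50.8) in IR (-0.68), Lag3 at 109.9 CPM in Control and 72.9 in IR (-0.53) and the costimulator Tnfrsf9 (4-1BB) at 243 CPM in Control and 307 in IR (0.33). Of the cytokine receptors, 5 of 18 were tested and all 5 were lower in IR (median -0.40), Il4ra past 2-fold at 83.1 CPM in Control and 36.3 in IR (-1.01). Chemokine receptor and egress genes (7 of 16) had a median of -0.31 and 0 past 2-fold, with Ccr2 at 314 CPM in Control and 227 in IR. In the TGF-beta pathway 9 of 18 were tested, 8 were lower and 0 were past 2-fold (median -0.12), the receptor Tgfbr2 standing at 114 CPM in Control and 83.8 in IR. Over all genes tested the median was -0.05 and the quartiles were -0.25 and 0.13, and the checkpoint and TGF-beta medians lay between these quartiles.

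Among chemokines made by lymphocytes, Xcl1 was at 1455 CPM (95% interval 1396 to 1515) in Control and 790.0 CPM (95% interval 755 to 826) in IR, a log2 ratio of -0.87, and was detected in 68.8% of the Control cells and 37.8% of the IR cells. In conventional NK cells it was at 993 CPM in Control and 506 in IR (-0.96). Ccl4, an inflammatory chemokine, was at 69.95 CPM in Control and 151 in IR with 45.3% of the IR UMIs in 1 cell, and the list's median of 1.16 over 4 genes was set by Ccl4, Ccl5 and Cxcl10, whereas the summed list, mostly Xcl1, had a ratio of -0.35. Of the death ligands and cytokines (6 of 16 tested, median -0.07), Spp1 was past 2-fold and gave the summed list a ratio of 1.10. Ifng was at 59.96 CPM in Control and 59.6 in IR (-0.01), Fasl at 58.7 CPM in Control and 43.5 in IR (-0.36) and Ltb (lymphotoxin beta) at 184 CPM in Control and 117 in IR (-0.61).

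Most glycolysis genes were higher in IR, by less than 2-fold. Of 24 glycolysis and hypoxia genes, 16 were tested, 14 were higher and 0 were past 2-fold, with a median log2 ratio of 0.48 and 0.45 for the same genes in conventional NK cells. Gapdh was at 1942 CPM in Control and 3155 in IR (0.70), Pkm at 661 CPM in Control and 1083 in IR (0.70) and Ldha (lactate dehydrogenase) at 886 CPM in Control and 1347 in IR (0.60), while Vegfa, a hypoxia target, was at 102 CPM in Control and 64.5 in IR (-0.59). Targets of p53, the factor that responds to DNA damage, had a median of 0.52 over 7 of 24, with 6 higher, 0 past 2-fold, and 0.23 in conventional NK cells. Cdkn1a (p21), which halts the cell cycle, was at 87.4 CPM (95% interval 73.6 to 103) in Control and 165 CPM (95% interval 149.6 to 182) in IR (0.85), and the cell death gene Bax at 149 CPM in Control and 219 in IR (0.52). The 9 apoptosis regulators tested had a median of 0.15.

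Immediate-early and NF-kB genes had a median of -0.23 over 17 of 26, with 11 lower, 6 higher and 0 past 2-fold. That median lay between the quartiles of all genes tested, -0.25 and 0.13. Junb was at 1353 CPM in Control and 759 in IR (-0.83) and Fosb at 227 CPM in Control and 113 in IR (-0.95), and on the other side Ier3 at 68.1 CPM in Control and 122 in IR (0.75) and Jun at 107 CPM in Control and 175 in IR (0.67). Heat shock genes, which encode chaperones, had a median of 0.10 over 9 of 14 and 0 past 2-fold.

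**Figure D4:**
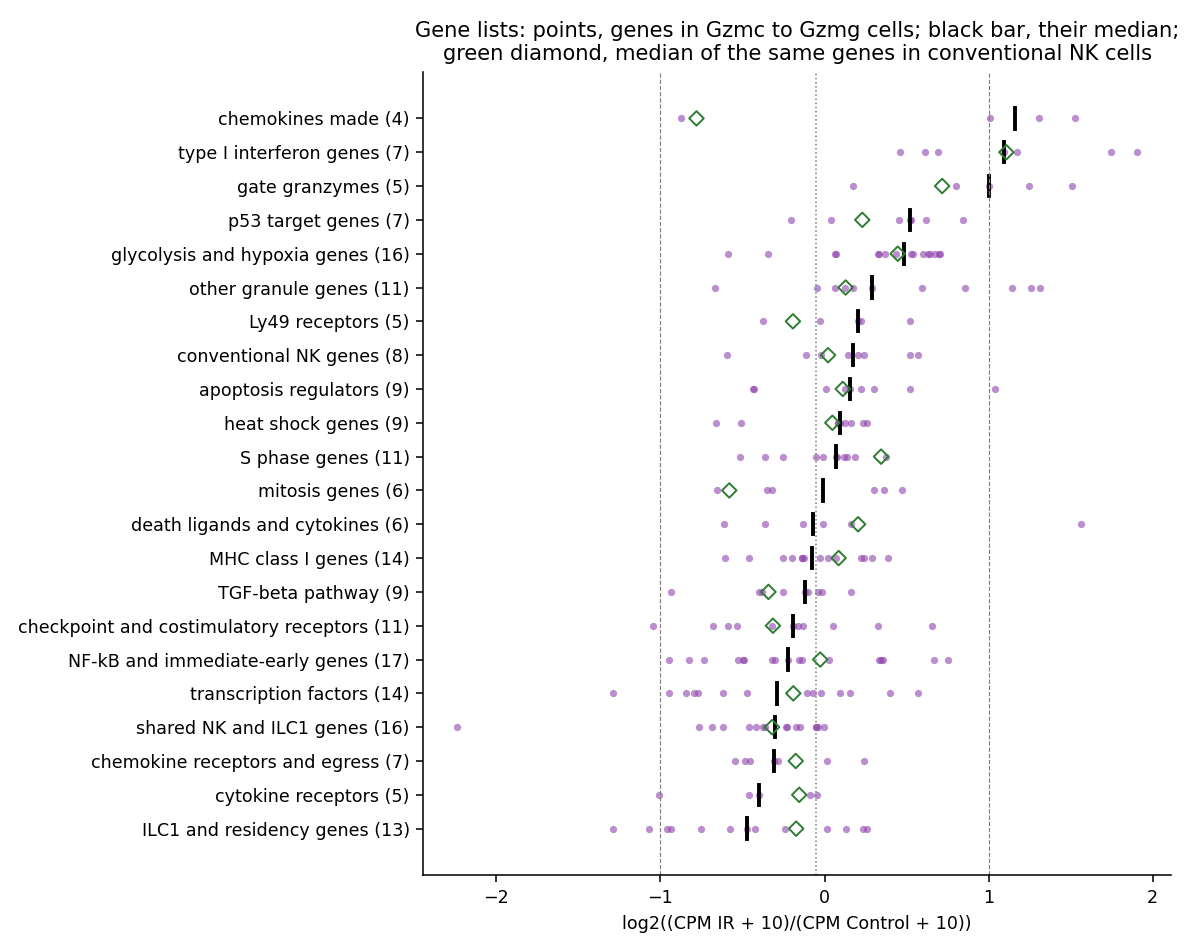
Log2 ratio of IR over Control on CPM + 10 in Gzmc to Gzmg cells for every tested gene (points) of the 22 lists with at least 4 tested genes, the number in brackets; black bars are list medians, green diamonds the median of the same genes in conventional NK cells, the dotted line the median of all genes (-0.05) and dashed lines 2-fold. Interferon, granzyme, p53 and glycolysis lists lie to the right, and shared NK and residency lists to the left, and the chemokine diamond lies at -0.78, on the other side of its bar.

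The shares of cycling cells in the 2 libraries had overlapping intervals. With at least 2 UMIs of 24 mitosis genes after thinning to 2000 UMIs, cycling cells numbered 25 among 141 in Control (17.7%, interval 11.8% to 25.1%) and 19 among 127 in IR (14.96%, interval 9.25% to 22.4%); unthinned shares were 57.2% and 62.5%. The expected share over all possible thinnings was 15.7% in Control and 16.2% in IR. Conventional NK cells counted as cycling in 11.96% and 6.88%, and CD8 T cells in 30.9% and 20.8%. The 6 mitosis genes tested had a median log2 ratio of -0.01 (-0.58 for the same genes in conventional NK cells) and the 11 S phase genes 0.07, with 0 past 2-fold in each; Top2a was at 102 CPM in Control and 78.2 in IR and Pcna at 189 CPM in Control and 145 in IR. Free RNA also reaches these counts, and its part was not tested.

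Set beside conventional NK cells of the same library, 20 of 2565 genes (0.78%) were at least 2-fold higher in the Gzmc to Gzmg cells in both libraries and 68 (2.65%) at least 2-fold lower. The 2 classes were divided by the rule, so this is a description. The 20 include the 5 granzymes of the rule, and the 68 include its genes Gzma, Klra4, Klra8 and Klra9, whose differences the division itself fixed. Apart from the 5 granzymes, the widest gap was for Ifitm1, an interferon-induced transmembrane protein, at 761 CPM in Control and 979 in IR against 69.1 CPM in Control and 55.7 in IR, log2 ratios of 3.29 in Control and 3.91 in IR. Ifitm2 had ratios of 2.14 in Control and 2.29 in IR at 1803 CPM in Control and 2107 in IR. Ifitm3 stood at 0.73 in Control and -0.20 in IR. The type I interferon list went the other way. Of its 8 genes compared, 0 were at least 2-fold higher in both libraries and 2 lower, with medians of -0.90 in Control and -0.90 in IR. Sema6d, a semaphorin, was at 126 CPM in Control and 84.2 in IR and near absent from conventional NK cells, at 12.1 CPM in Control and 1.24 in IR. The transmembrane genes Tmem176a (2.28 in Control and 2.31 in IR) and Tmem176b (2.25 in Control and 2.37 in IR), the receptor gene Igflr1 (2.09 in Control and 2.24 in IR) and Itga1 (1.15 in Control and 1.37 in IR) followed. Also among them were the costimulator Tnfrsf9 (1.59 in Control and 1.45 in IR) and the checkpoint receptor Ctla4 (1.08 in Control and 1.57 in IR). The others were Gpr183, a receptor for oxysterols (1.59 in Control and 1.21 in IR), C1qtnf6 (1.40 in Control and 1.07 in IR) and the unnamed locus Gm36723 (1.29 in Control and 1.24 in IR).

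Ccl5 was the gene most depleted beside conventional NK cells, at 55.6 CPM in Control and 152 in IR against 5309 CPM in Control and 2695 in IR, log2 ratios of -6.34 in Control and -4.06 in IR. It was lower in Gzmc to Gzmg cells than in empty droplets (874 CPM in Control and 1356 in IR). The transcription factor Klf2 (-2.33 in Control and -1.84 in IR), the homing receptor Cxcr4 (-2.54 in Control and -2.18 in IR), the chemokine Ccl3 (-3.11 in Control and -2.08 in IR) and Adgre5 (CD97; -1.88 in Control and -1.95 in IR) were also lower, and so was Eomes (-1.96 in Control and -1.06 in IR). Others with lower values, Cxcl2, Cxcl3, Arg1, Lyz2, Thbs1 and Fcgr2b, are genes of macrophages, monocytes or neutrophils; Lyz2 (lysozyme), for example, was at 209 CPM in Control and 229 in IR against 783 CPM in Control and 1375 in IR and at 5638 CPM in Control and 4796 in IR in empty droplets. The median cell was deeper in the Gzmc to Gzmg class, at 9962 and 15768 UMIs against 4865 and 6397, and the part of free RNA in this difference was not tested. Of the 13 conventional NK genes compared, 7 were at least 2-fold lower in both libraries, with medians of -1.24 and -1.02, and of 10 ILC1 and residency genes 4 were higher and 1 lower, with medians of 0.77 and 0.67.

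**Figure D5:**
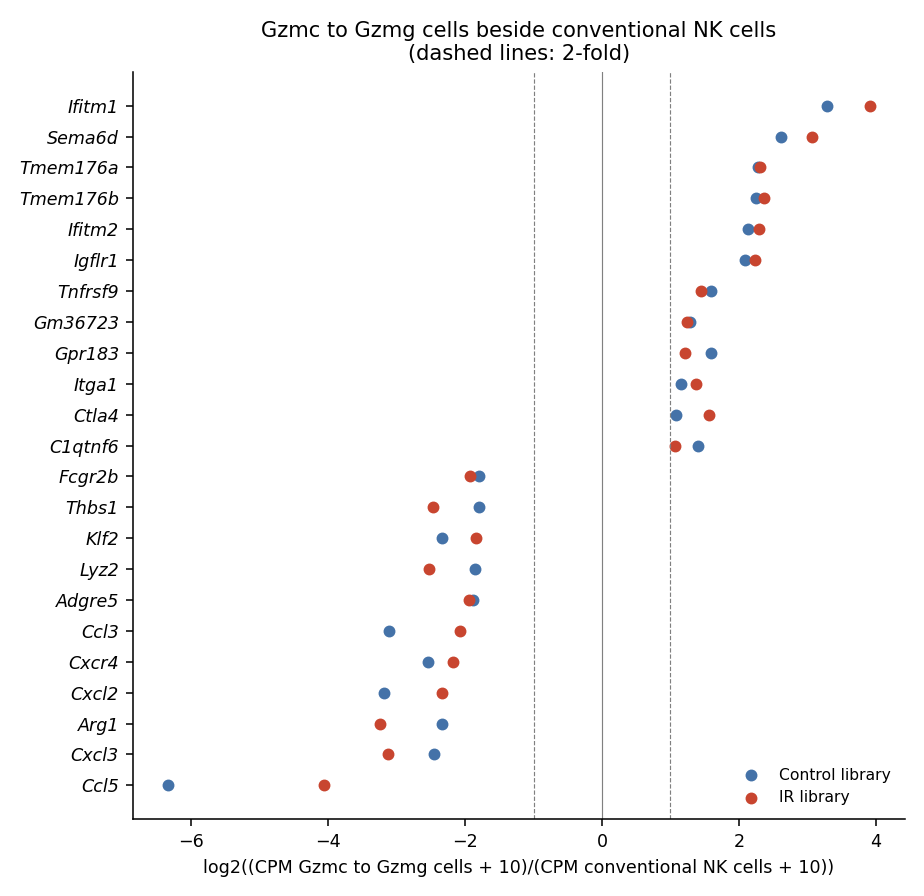
Log2 ratio of Gzmc to Gzmg cells over conventional NK cells on CPM + 10 (x axis) for 23 of the named genes, Control in blue and IR in red, with dashed lines at 2-fold. Every gene shown lies past 2-fold on the same side in both libraries, Ifitm1 at the top and Ccl5 at the bottom.

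Summed markers of most other cell types stood close together in both libraries. The 12 macrophage markers summed to 1320.3 CPM in Control and 1289 in IR, of which Ctsd, a protease that many cell types express, gave 946 CPM in Control and 858 in IR. Cd14, a receptor of monocytes and macrophages, was at 48.1 CPM in Control and 133 in IR (1.30), with 482 CPM in Control and 657 in IR in empty droplets; in conventional NK cells the 12 summed to 1975 and 2679.9 CPM. The 10 monocyte and neutrophil markers summed to 1295 CPM in Control and 1604 in IR, and the 10 dendritic cell markers to 1098 CPM in Control and 1011 in IR, with Xcr1 at 0 in each library. Of the 14 T cell markers (1699 CPM in Control and 1642 in IR), Cd3e was at 0 in both, and Trbc1, Trbc2, Cd28 and Thy1, which NK cells can also express, were the only ones above the mean of 50 CPM. The 5 gamma-delta T cell markers summed to 71.8 CPM in Control and 78.2 in IR. Of the 12 ILC2 and ILC3 markers (106 CPM in Control and 92.3 in IR), Il13, Il5, Il22, Il17a and Il17rb were at 0. B and plasma cell markers summed to 157 CPM in Control and 147 in IR, nearly all of it Ighm, with Cd79a, Ms4a1 and Jchain at 0, basophil and mast cell markers to 14.4 CPM in Control and 26.2 in IR, and stromal and tumor markers to 13.7 CPM in Control and 14.5 in IR.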

How the data were processed

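CD45+ cells were profiled in 2 libraries, 1 Control and 1 IR, with the Chromium Next GEM Single Cell 3' v3.1 kit. The deposited matrices hold raw UMI counts per gene and barcode, unfiltered, which the authors made with Cell Ranger against mm10 (version 6.0.1 in the submitters' processing notes and the study's methods; the matrix header names 4). The study itself removed doublets with DoubletFinder; here no doublet caller entered the values, and Scrublet (in scanpy 1.11.5, removing the top 6% of scores) was an alternative, as were other limits in the rule, other pseudocounts and filters, TMM scaling (edgeR 4.0.16) and subtraction of free RNA. From the counts, cells were chosen by the stated rule, UMIs were summed per class and library, and CPM with exact Poisson intervals, shares with exact binomial (Clopper-Pearson) intervals and ratios of shares with log-normal intervals, all at 95%, were computed (Python 3.11.15, numpy 2.4.6, scipy 1.17.1). The members, lists and named genes were chosen with earlier results of these data known. Ratios were log2((CPM IR + 10)/(CPM Control + 10)), for genes with a mean of at least 50 CPM; "past 2-fold" is a size, not a test. Named genes were the rule genes, markers and list examples, the 12 largest changes per direction in IR over Control, and the 12 per direction with the largest smaller ratio against conventional NK cells, without mitochondrial, Xist, Y-linked and rule genes. CD8 T cells had at least 2 UMIs each of Cd3d with Cd3g and of Cd8a with Cd8b1, no Cd4 UMI, at most 1 UMI of Ncr1 and Klrb1c and at most 5 of C1q. Macrophages had at least 20 UMIs of C1q and none of Ncr1, Klrb1c, Cd3d or Cd3g. The matrices totalled 48593879 UMIs in Control and 42406461 in IR. The computations were tested on simulated data. Listed symbols without a match (Klra13-ps, Ncr3-ps, Lilrb4b, Trgc1 and Trgc2) were not analysed here, and some named genes are not reported here.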

Additional observations from a re-analysis of the deposited data

Results flagged for a closer look

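In empty droplets, which enter no comparison of cells, Gzmc to Gzmg made up 0.725% of UMIs in the IR library (95% interval 0.709% to 0.741%), above the 0.274% (0.266% to 0.282%) of the Control library. The mix of the 5 in these droplets was 42.6% Gzmc and 34.2% Gzmf in IR and 66.6% Gzmc and 15.5% Gzmf in Control.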

How the results depend on the processing

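No paired analysis was possible because each group had 1 library. Depth limits the counting error only, and no alternative stands for a replicate. Of 111 recomputed shares and counts that answer a comparison, 93 kept their value within the counting interval or 1.5 times, and 18 did not. Of 980 recomputed values of single genes and lists, 753 did, 215 moved further and 12 changed sign. A sign change entered the 12 only where the counting interval of the main value left out 0. Summed lists whose interval held 0 turned too. Conventional NK genes (0.004) ranged from -0.08 to 0.10, and mitosis and S phase are given below. The ratio of shares of kept barcodes (1.21) was 1.69 without the comparison with Gzma and Ly49 and 0.936 with the rule applied after thinning to 2000 UMIs, and the ratio of NK-gate shares (0.691) was 0.965 without that comparison. The 28 genes at least 2-fold higher in IR became 45 with the thinned rule, 16 after removal of the 6% of barcodes with the highest Scrublet score, 14 with a pseudocount of 50, 47 with a mean of at least 20 CPM, 16 with at least 100 CPM and 70 without a filter. The 13 genes at least 2-fold lower became 49 with the thinned rule, 20 with a pseudocount of 1, 4 with 50, 3 with at least 100 CPM, 25 without a filter and 8 with TMM scaling. Beside conventional NK cells, the 20 higher genes became 12 and the 68 lower 23 with a pseudocount of 50, and the 68 became 122 without a limit on C1q UMIs; alternatives for this comparison and the C1q alternative were chosen after seeing the data. The log2 ratio of the summed MHC class I list (-0.06) changed sign to 0.0067 without the Gzma and Ly49 comparison, 0.012 without the C1q limit, 0.042 with TMM and 0.12 as a mean of per-cell CPM, that of checkpoint receptors (-0.10) to 0.0020 with TMM and 0.086 per cell, and that of heat shock genes (0.10) to -0.13 with the thinned rule. List medians turned over 16 alternatives for chemokines (1.16; -0.78 to 1.41), death ligands and cytokines (-0.07; -0.18 to 0.34), S phase (0.07; -0.62 to 0.16), mitosis (-0.01; -0.41 to 0.87), NF-kB and immediate-early (-0.23; -0.57 to 0.07), checkpoint receptors (-0.19; -0.28 to 0.04), MHC class I (-0.08; -0.11 to 0.08), heat shock (0.10; -0.09 to 0.19) and Ly49 genes (0.20; -0.01 to 0.98); the summed mitosis list ranged from -0.33 to 1.14 and S phase from -0.84 to 0.09. Single genes that changed sign were Gzmc (-0.079, no Gzma and Ly49 comparison), Cxcl10 (-0.044, at least 4 Ncr1 and Klrb1c UMIs), Cxcl2 (-0.23, thinned rule, and -0.59, Scrublet) and Il1b (-0.43, Scrublet). The cause of these changes was not tested. TMM scaling moved every log2 ratio by 0.10.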

Other observations

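A further protease gene beside the granzymes was found in these cells. Mcpt8, at chr14:56082166-56085273 in GRCm38 and best known from basophils, was at 14.4 CPM (95% interval 9.11 to 21.6) in Control and 18.5 CPM (95% interval 13.6 to 24.7) in IR in the Gzmc to Gzmg cells and at 0 CPM in Control and 1.24 in IR in conventional NK cells. Of the 7 other basophil and mast cell markers, all were at 0 in Control, and in IR Cpa3, Fcer1a, Cd200r3, Il4 and Gata2 had 1 to 9 UMIs, each gene in 1 cell, against 46 UMIs of Mcpt8 in 21 cells. In Control the 23 UMIs of Mcpt8 were in 9 cells. The 8 markers together stood at 14.4 CPM in Control and 26.2 in IR in the cells, and at 10.3 CPM in Control and 52.5 in IR in empty droplets. Cma1, at chr14:55941451-55944675 and known as a mast cell chymase, showed the other order between the cell classes, with 2.50 CPM in Control and 2.42 in IR in Gzmc to Gzmg cells and 46.6 CPM in Control and 36.5 in IR in conventional NK cells. Both genes were noticed after their values were seen.

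Barcodes that met every condition except the limit on T cell genes carried much Gzmc to Gzmg RNA. There were 40 in Control and 34 in IR, with a median of 193 and 263 Gzmc to Gzmg UMIs and of 13 and 21 T cell gene UMIs.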
